A study of Mus musculus with 8 samples.

Results

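The circadian clock genes described here are Arntl, Clock, Npas2, Per1, Per2, Per3, Cry1, Cry2, Nr1d1 and Dbp, 10 of the 63329 gene names that the arrays of the study carry. They were chosen by name as a possible sign of the hour at which cells were collected, and not by their signal. Earlier results of these data were known when they were chosen. All 10 have at least 1 probe on both array designs.

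Gene expression was measured on 8 single-colour Agilent arrays of mouse cells, 2 arrays for each of 4 groups. Lin- BMCs (arrays L3 and L4) were bone marrow cells of female C57Bl6/J-Tg(UBCGFP) 30Scha/J mice aged 6 to 8 weeks, from which lineage-positive cells had been removed with magnetic beads. These mice express eGFP from the ubiquitin C promoter, which is active in nearly all cell types, so that eGFP marks any donor cell and not a hepatocyte as such. BM-derived hepatocytes (BMD hep) were eGFP+ cells sorted from livers of male hemophilia A mice (the F8tm1Kaz allele on a mixed background that includes B6) that were 6 to 8 weeks old when acetaminophen injured the liver and Lin- BMCs were given by the tail vein. Arrays B1 and B2 hold such cells taken after 1 month, and arrays G1 and G3 such cells taken after 5 months. By the study's account, albumin staining of the sorted cells identified them as hepatocytes. Primary hepatocytes (H2 and H4) were the hepatocytes that the others were set against, and the strain, sex and age of the mice that gave them are not given in the sources used here. Hepatocytes were freed by collagenase perfusion of the liver under anesthesia and collected by a spin at low speed, meant to part them from non-parenchymal cells, and by the study's legend each experiment pooled cells of 3 mice. The hour of collection, the light cycle and the feeding of the mice are not given in the sources used here, and nothing says whether the 2 samples of a group were collected on the same day.

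In nearly every cell of a mammal a transcriptional feedback loop runs with a period of about a day. BMAL1 (the product of Arntl) pairs with CLOCK or its relative NPAS2, binds E-boxes and switches on the Per and Cry genes, whose proteins return to the nucleus and inhibit the pair. The same pair switches on Nr1d1, whose product REV-ERB alpha represses Arntl through ROR elements, and Dbp, a factor that binds D-boxes. In mouse liver the loop is strongly rhythmic, with Arntl and Npas2 high around the start of the light phase, Nr1d1 during the light phase, Dbp and Per1 towards its end and Per2 after it, whereas Clock varies little.

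The DNA elements through which these genes regulate each other were looked for in RefSeq promoter windows (GRCm38.p6, 250 bases before to 50 bases after a start). Of the 10 genes 9 had a window, 13 windows in all, and Per2 had none. Searched on both strands were the E-box CACGTG, the E′-box CACGTT, the D-box in the forms TTATGTAA and TTACGTAA, and the ROR element core in the forms TAGGTCA and TGGGTCA. No motif overlaps another by its letters in the stretches shown. The stretches that hold a match are given 5′ to 3′ on the gene's strand, with the match in capitals, to show which element each window holds.
Arntl, ROR element core at position 31 from the start, chr7:113207531-113207557, plus strand: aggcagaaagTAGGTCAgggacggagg
Per1, E-box at position -166 from the start, chr11:69098743-69098828, plus strand: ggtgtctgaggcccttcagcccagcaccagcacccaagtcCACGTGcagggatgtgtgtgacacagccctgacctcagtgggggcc
Cry1, E′-box on the other strand and E-box, chr10:85185069-85185173, minus strand: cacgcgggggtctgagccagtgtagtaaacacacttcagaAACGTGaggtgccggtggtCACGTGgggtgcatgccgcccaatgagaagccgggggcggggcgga
Cry2, E′-box on the other strand, chr2:92434190-92434275, minus strand: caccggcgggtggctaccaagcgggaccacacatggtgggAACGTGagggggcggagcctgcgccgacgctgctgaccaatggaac
Nr1d1, E′-box on the other strand, chr11:98775378-98775445, minus strand: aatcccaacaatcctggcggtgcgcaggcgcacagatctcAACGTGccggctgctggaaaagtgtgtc
Per3, D-box at 2 places, chr4:151044776-151044910, minus strand: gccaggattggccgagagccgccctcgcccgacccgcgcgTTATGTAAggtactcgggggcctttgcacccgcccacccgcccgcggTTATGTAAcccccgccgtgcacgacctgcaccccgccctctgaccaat

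Of all 32851 windows, 7.15% hold the E-box, 4.68% the E′-box, 0.938% the first D-box form, 0.119% the other form, 2.61% TAGGTCA and 3.98% TGGGTCA. Among the 13 windows of the clock genes the counts were 2, 3, 1, 0, 1 and 0. A match is a stretch of letters and was not tested for binding, and elements outside these windows were not searched.

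Levels are given as log2 of the background-subtracted signal minus the 75th percentile of the same array, so that 0 is the upper quartile of that array, and a level of one probe is not compared with that of another. A probe is called dim where the scanner software did not mark it as well above background. Between 47.7% and 58.6% of probes were well above background on an array, and no probe was saturated. Lin- BMCs and 1 month cells lay on one slide, primary hepatocytes and 5 months cells on another slide of another design, and slide, design and group cannot be told apart between them. All hepatocyte markers with a probe (9 of 9 on the first slide, 10 of 10 on the second) were well above background on each array of hepatocytes, while Alb, Apoa1, Apob, Cps1, Cyp2e1 and Ttr were dim on both arrays of Lin- BMCs and the remaining 3 of 9 were not. All 10 marrow progenitor markers were above background in Lin- BMCs, and 4 to 9 of 10 on the hepatocyte arrays. Of the Kupffer cell markers, 6 of 6 were above background on every hepatocyte array and 4 of 6 in Lin- BMCs, and of the endothelial markers 5 to 6 of 6 on every array. Fewer cells of a type and less RNA per cell cannot be told apart in such samples. The 2 arrays of primary hepatocytes stood apart from each other in the clock genes, and results that rest on them are therefore given with both and with either.

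Arntl encodes BMAL1, the partner that no other protein of the loop replaces in most tissues. Its level was 2.39 in H2 and -3.12 in H4, against 1.27 in G1 and 1.14 in G3, which as background-subtracted signal is 746 and 14.6 against 298 and 229. The primary hepatocyte arrays thus lay on either side of the 5 months pair and 45.5-fold apart. On the other slide Arntl was at -0.33 and -0.76 in Lin- BMCs and at 0.52 and 1.12 in 1 month cells. The groups did not overlap there, and Arntl was higher at 1 month by 1.37 (SE 0.35, limma, adjusted p = 0.0255).

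Clock, the DNA-binding partner of BMAL1, varied less between the hepatocyte arrays. It was at 1.63 in H2, 0.53 in H4, 2.30 in G1 and 2.07 in G3, so that both 5 months arrays were above both primary arrays by a mean of 1.1 (SE 0.43), which did not pass the test (limma, adjusted p = 0.362). The signal was 0.41 and -0.38 in Lin- BMCs and 2.57 and 2.49 at 1 month, a rise of 2.52 (SE 0.36, limma, adjusted p = 0.00479). Of its other 2 probes on that slide one gave 2.45, and the dimmest gave -0.21 (limma, adjusted p = 0.803), with 1 of the 1 month arrays at background.

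Npas2, which can stand in for Clock, was dim on all 4 arrays of the first slide. On the second it was above background in H2 only, at -3.42, while H4, G1 and G3 were dim. H2 was at least 1.61-fold over H4, 1.61-fold over G1 and 1.36-fold over G3, a bound taken from the weakest probes still above background on the dim array. The array with the higher Arntl was therefore also the one in which Npas2 was seen.

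Per1 encodes the period protein whose gene also responds within minutes to glucocorticoids and cyclic AMP. In primary hepatocytes it ran opposite to Arntl, with 1.31 in H2 and 5.59 in H4 (signals of 352 and 6079), and the 5 months arrays lay between at 3.56 and 3.47. Its second probe on that slide was dim on every array. On the first slide it was at 2.53 and 2.15 in Lin- BMCs and at -0.30 and -2.80 at 1 month. Per1 fell by 3.89 on the log2 scale between these groups (SE 0.85, limma, adjusted p = 0.0162), and it was the only clock gene called lower.

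Per2, the period protein required for a stable rhythm in mice, was at -2.05 in H2 and 0.21 in H4. Both 5 months arrays, at -2.20 and -2.39, were near H2. On the first slide its 2 probes disagreed. The probe with the higher mean rose from -2.27 and -2.57 in Lin- BMCs to -0.82 and -0.57 at 1 month, by 1.73 (SE 0.28, limma, adjusted p = 0.00695), and the other went from -1.27 and -0.72 to -1.72 and -2.85, a difference of -1.29 (limma, adjusted p = 0.0701). The second probe is the one that shares its sequence with the probe of the other slide, so the direction of Per2 between Lin- BMCs and 1 month cells depended on the probe.

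Per3, the remaining period gene, was dim on all arrays of the first slide and on 3 of 4 arrays of the second. It was above background in H4 only, at -3.02, which was at least 2.73-fold over H2, 2.13-fold over G1 and 1.80-fold over G3. H4, high in Per1 and Per2, was thus also the single array of the 8 with Per3 above background, at a weak signal of 15.6.

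Cry1 and Cry2 encode the cryptochromes, which bind the period proteins and inhibit CLOCK and BMAL1. Cry1 was weak on both slides. It was at -2.84 in H2, -3.00 in H4, -4.39 in G1 (dim) and -3.53 in G3, and at -2.38 and -3.31 in Lin- BMCs against -4.69 and -3.56 at 1 month (both dim), where it was at least 1.60-fold lower by the bound and not called (limma, adjusted p = 0.0951). A second probe of that slide, at -3.08 and -3.77 in Lin- BMCs and at -4.30 (dim) and -2.84 at 1 month, had the groups overlap and gave -0.15 (limma, adjusted p = 0.841). The primary arrays differed by 0.16, so that Cry1 was the clock gene in which H2 and H4 were closest.

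Cry2 was at 4.39 in H2, 5.24 in H4, 4.40 in G1 and 3.88 in G3, with G1 between the primary arrays. A second probe read -1.71, 0.42, 0.22 and -0.61 in the same order, and both probes were higher in H4 than in H2. On the first slide Cry2 was at -1.16 and -1.06 in Lin- BMCs and at -0.20 and -0.39 at 1 month. The rise of 0.82 (SE 0.26, limma, adjusted p = 0.0485) was the smallest that was called, and it was lost in every fit that left out 1 array.

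Nr1d1 encodes REV-ERB alpha, the repressor of Arntl. It was at 1.98 in H2, 0.04 in H4, 1.22 in G1 and 1.43 in G3, so that within the primary pair it went with Arntl and not with Dbp. On the first slide it was at -2.39 and -2.53 in Lin- BMCs and at 2.72 and 0.60 at 1 month. The rise of 4.12 (SE 0.72, limma, adjusted p = 0.00867) was the largest difference of a clock gene in that comparison. Its other 2 probes there gave 0.48 (limma, adjusted p = 0.199) and 1.24 (limma, adjusted p = 0.0138), and in the fit without array B1, in which one of those probes was the brightest, the difference was 0.65.

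Dbp, the D-box factor that carries the rhythm to liver metabolism, was at 2.28 in H2 and 7.81 in H4 (signals of 691 and 28437), and at 3.38 in G1 and 3.37 in G3. The primary arrays were 46.1-fold apart and a second probe, with 1.59, 7.43, 2.46 and 2.68, gave the same order of H2, the 5 months pair and H4. On the first slide Dbp was at 3.76 and 3.20 in Lin- BMCs and at 3.41 and 2.40 at 1 month. These groups overlapped, and the difference of -0.57 (SE 0.44) did not pass the test (limma, adjusted p = 0.313).

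**Figure D1:**
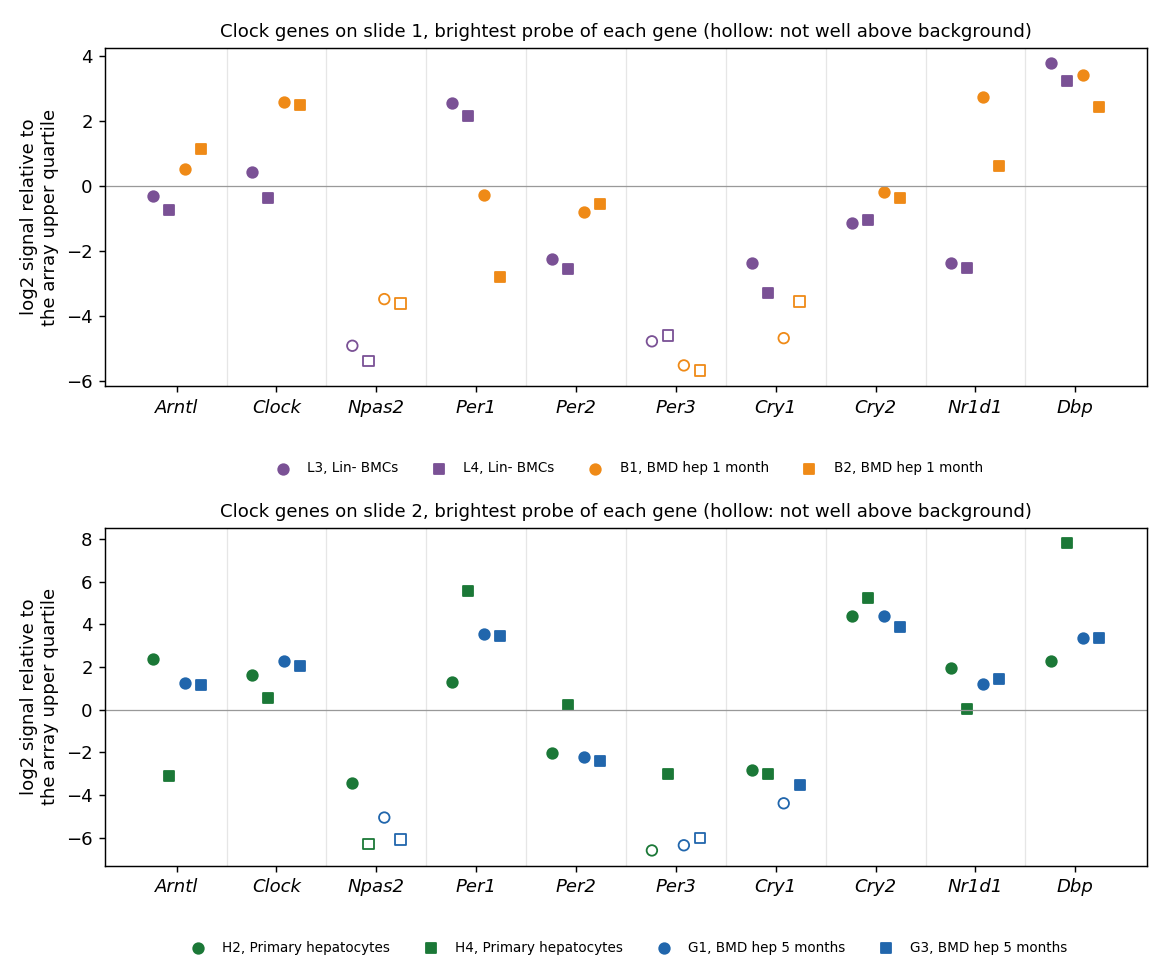
Level of each of the 10 clock genes on each array, as log2 signal minus the 75th percentile of the array (vertical axis), with one panel for each slide, one point per array, hollow points for dim probes and the brightest probe of each gene. H2 and H4 are far apart for Arntl, Per1 and Dbp while G1 and G3 nearly coincide, and in the first slide the 1 month points lie above those of Lin- BMCs for Clock and Nr1d1 and below them for Per1.

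The plot of levels on each array shows the clock genes by array and not only by group. How far the 2 arrays of a group differed was set against all genes above background on both. Between H2 and H4, 6 of 8 clock genes differed by more than 1 on the log2 scale, 3 in each direction, where 13.3% of 19067 genes did, and the median size of the difference was 2.10 for the clock genes and 0.33 for all genes. Arntl had the most negative difference of all those genes, -5.51. Dbp was at rank 3 from the top with 5.53, Per1 at rank 16 with 4.28 and Per2 at rank 231 with 2.26, and at the low end Nr1d1 was at rank 332 with -1.94 and Clock at rank 912 with -1.09. With only 2 arrays the difference has no error of its own, and no test is given.

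The other pairs were closer, with 1 exception. Between G1 and G3, 0 of 7 clock genes differed by more than 1 (2.62% of all genes), with a median size of 0.19 against 0.22 for all genes, and between L3 and L4, 0 of 8 did (12.3% of all genes), with 0.41 against 0.37. Between B1 and B2, 3 of 7 did (6.01% of all genes), and all 3 were lower in B2: Per1 by -2.50, Nr1d1 by -2.12 and Dbp by -1.0. Arntl was higher in B2 by 0.61. With quantile normalization Dbp was at -0.90 and the count was 2 of 7, and the other counts were as given.

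**Figure D2:**
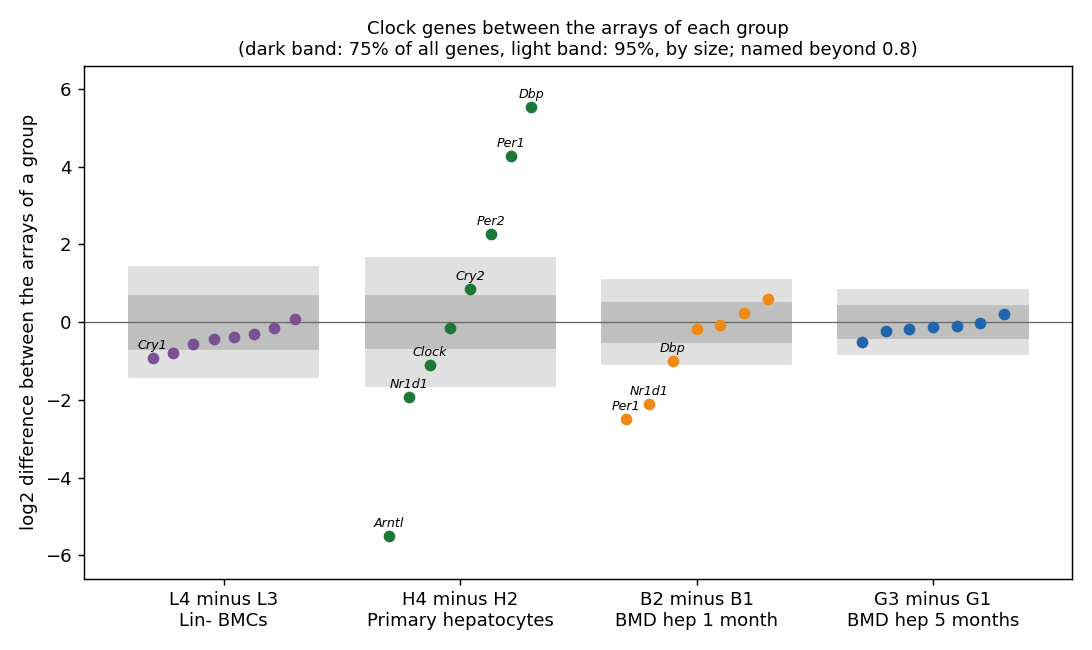
Difference between the 2 arrays of each group for each clock gene above background on both (log2, vertical axis), one column per group, over a light band that holds 95% of all genes and a dark one that holds 75%. In primary hepatocytes Arntl (-5.51), Dbp (5.53), Per1 (4.28), Per2 (2.26) and Nr1d1 (-1.94) lie outside that range of 1.65, and in 5 months cells no clock gene differs by more than 1.

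The plot of array pairs shows that the spread of the clock genes was large in one group and small in another with the same number of arrays. A single measure of the same pattern is Arntl minus Dbp on the log2 scale, which has no meaning as a value and can be compared between arrays of one slide only. It was 0.11 in H2, -10.93 in H4, -2.11 in G1 and -2.22 in G3. On the first slide it was -4.09 and -3.97 in Lin- BMCs, -2.89 in B1 and -1.28 in B2. Npas2 minus Nr1d1 was -5.40, -6.35, -6.28 and -7.53 on the second slide and -2.53, -2.87, -6.21 and -4.23 on the first, in each case with Npas2 dim on all arrays but H2.

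Other genes of the clock were taken from fixed lists. Of 10 further transcription factors of the loop, 5 were higher in H4 than in H2 by more than 1, 1 was lower, and the median difference was 0.94, against 0.04 over all genes. Those higher were Ciart (4.31), a repressor of CLOCK and BMAL1, the D-box factors Tef (1.94) and Hlf (1.80), the REV-ERB beta gene Nr1d2 (1.66) and Bhlhe41 (1.05), which binds E-boxes. Lower was Nfil3 (-2.12), which represses through the D-box that DBP, TEF and HLF activate. The difference of Rora, whose product activates through ROR elements, was 0.00.

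Of 8 genes for the turnover and the partners of clock proteins, 1 was higher by more than 1, Usp2, a ubiquitin protease, whose difference of 7.34 was the highest of all genes. The median of that list was -0.12. Of 10 liver genes known as outputs of the clock, 7 were higher in H4 and 2 lower, with a median of 2.27. Among them were Wee1, a kinase that holds back mitosis (3.51), Alas1 of heme synthesis (2.95), Por, the reductase of cytochromes P450 (2.75), Rgs16 (2.64), Upp2 (2.50), Nampt of NAD synthesis (2.04) and Cyp7a1, the rate-limiting enzyme of bile acid synthesis (1.75). Elovl3 (-1.60), a fatty acid elongase, and Pnp (-1.40) were lower.

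Lists for other influences also differed between H2 and H4. Of 10 genes of feeding and fasting, 5 were higher (Angptl4 2.78, Pck1 2.07, Cpt1a 1.50, Fgf21 1.23 and Ppargc1a 1.23) and Fasn was lower (-2.24), with a median of 0.96. Of 5 glucocorticoid response genes, Per1 among them, 3 were higher, with Fkbp5 at 2.97 and Tsc22d3 at 1.08. Of 10 immediate early genes, which rise when tissue is dissociated, Dusp1 was higher (1.03), Junb lower (-1.01) and the median was -0.12, and of 6 genes of the temperature response Cirbp was lower (-1.04), with a median of 0.31. Of the 6 Kupffer cell markers 4 were higher, with a median of 1.09, and their summed level was 4.96 in H2 and 6.05 in H4. Of 4 stellate cell markers 2 were higher, and of 6 endothelial markers 1. Of 4 lineage-positive blood markers Itgam was lower (-1.84). The 10 hepatocyte markers and 8 housekeeping genes held none beyond 1, with medians of 0.22 and 0.04. Among the extremes, looked up after their values were seen, were the metallothionein gene Mt2 (5.68), the hemoglobin genes Hbb-b2 (4.99) and Hbb-bt (4.90) and the glycolysis regulator Pfkfb3 (4.83), all higher in H4. The part of the hour of collection, feeding, glucocorticoids and other cell types in the clock gene differences was not tested.

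**Figure D3:**
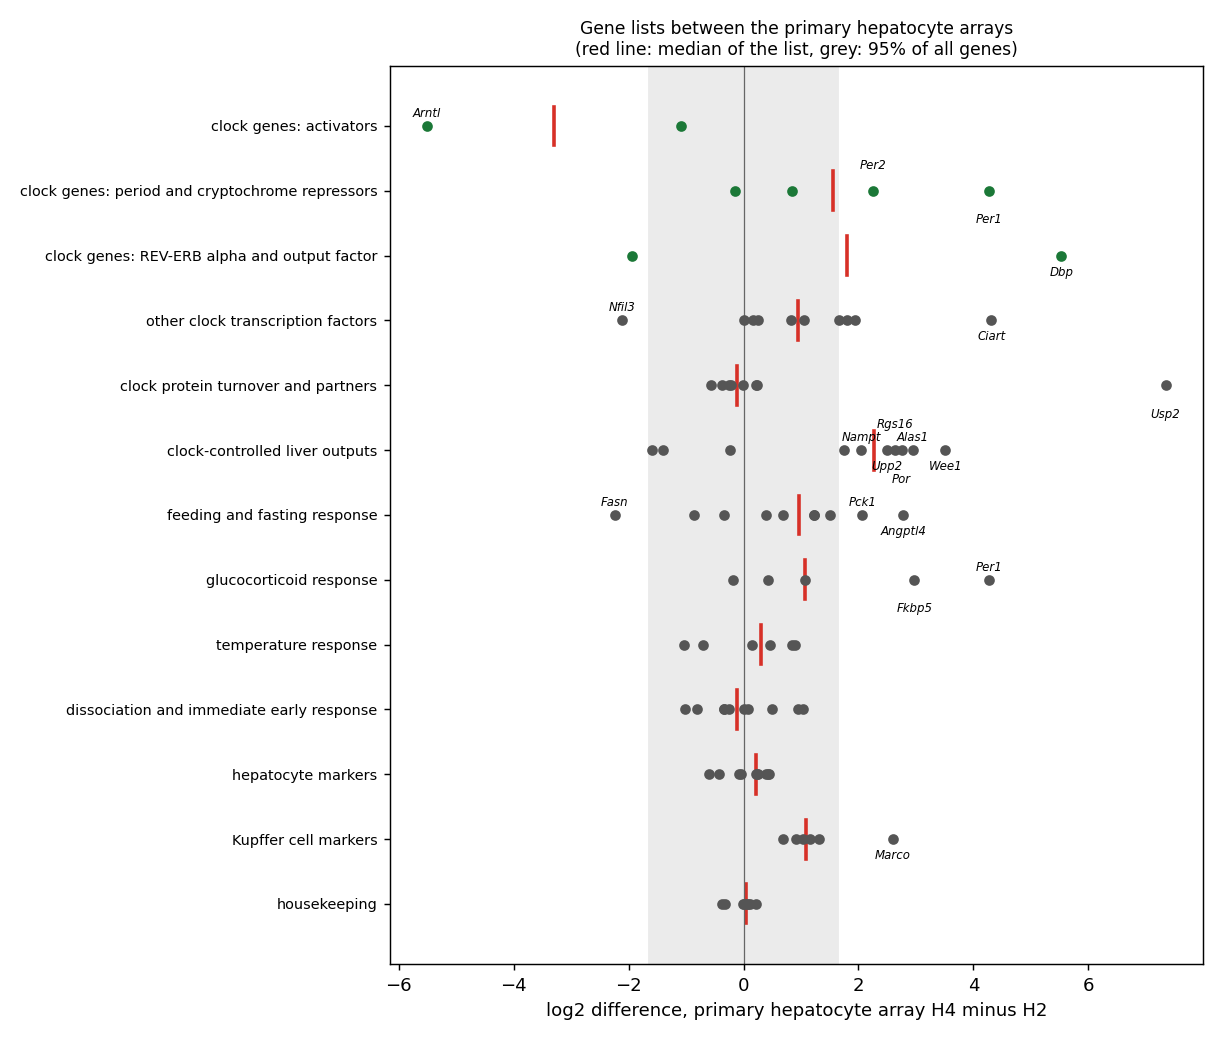
Difference H4 minus H2 (log2, horizontal axis) for each gene above background on both arrays, by list, with one point per gene, a red bar at the median of the list and a grey band that holds 95% of all genes. The clock genes spread widely in both directions, while the other transcription factors (median 0.94) and the outputs (median 2.27) lie mostly above 0. The 10 hepatocyte markers (median 0.22) and 8 housekeeping genes (median 0.04) all lie within 1 of 0.

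The plot of lists sets the clock genes beside genes that do not belong to the loop. The same lists were read for B1 and B2, the other pair with differing clock genes. There 9 of 10 immediate early genes were lower in B2, with a median of -2.78, and 5 of 6 Kupffer markers were higher, with a median of 2.42. Of 6 marrow progenitor markers 2 were also higher (median 0.85), and of 4 stellate cell markers 2 (median 0.996). Of 5 endothelial markers and 9 hepatocyte markers 0 differed by more than 1. Per1 is itself an immediate early gene in many cells. Of 10 clock outputs 1 was higher in B2 (Elovl3, 2.86) and 2 were lower (Rgs16 -2.64 and Noct -1.57), with a median of -0.27. The median size of their difference was 0.76, against 0.61 for the clock genes and 0.27 for all genes. Of 7 other transcription factors 0 were higher and 1 was lower (Bhlhe40, -2.78), with a median of -0.33. Among 5 glucocorticoid genes Per1 alone was lower (median -0.72). Between L3 and L4, 8 of 10 immediate early genes were lower in L4 (median -1.15), and 0 of 8 clock genes differed by more than 1. Of 8 other transcription factors of the loop 3 were lower in L4 (Ciart -1.56, Hlf -1.43 and Rora -1.05) and 0 higher, with a median of -0.94. Of 7 turnover genes 1 was higher (Timeless, 1.46), and of 7 clock outputs 1 (Noct, 1.38). The part of the immediate early response and of other cell types in the values of Per1, Nr1d1 and Dbp was not tested.

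Whether cells from the liver differ from the transplanted cells in their clock genes was compared on the first slide, where all probes could be used. Of the 8 clock genes tested, 5 were higher at 1 month (Arntl, Clock, Per2, Cry2 and Nr1d1) and 1 was lower (Per1). Over all 28522 genes the same test called 55.3%, with 28.8% higher and 26.5% lower, so that 6 of 8 is not far above the background. The median difference was 1.09 for the clock genes and 0.07 for all genes. By role, both activators tested rose, 2 of 4 repressors rose and 1 fell, and Nr1d1 rose while Dbp was not called. With the second probe of Per2, or the mean of its probes (0.22), 1 of 4 repressors rose. The count was 4 without B1, 3 without B2, 3 without L3 and 2 without L4. Clock was called in each of these 4 fits, Arntl without B1 only and Per1 without either 1 month array, and Per2 was lower without B1 (-1.85, limma, adjusted p = 0.0442), where its second probe was the brighter.

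The remaining clock genes of the lists moved both ways in that comparison. Of 8 other transcription factors 4 rose, among them Rora (2.59), Nfil3 (2.40) and Tef (0.93), and none fell, with a median of 1.75. Of 8 turnover genes Fbxl21, dim in Lin- BMCs, was at least 3.77-fold higher, and Timeless (-6.68), which is needed for DNA replication in mammals, and the kinase gene Csnk1e (-2.86) fell. Of 11 outputs 7 rose and 1 fell, with a median of 2.86. Of these Cyp2a5, Elovl3, Cyp7a1 and Upp2 were dim in Lin- BMCs and at least 7187-fold, 427-fold, 232-fold and 30.1-fold higher, and Rgs16 rose by 5.83, while Wee1, dim at 1 month, was at least 1.07-fold lower.

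Lists outside the clock moved as well. All 10 feeding genes rose, among them Igfbp1, Pck1, G6pc and Fgf21, as did all 9 hepatocyte markers, and 8 of 10 marrow progenitor markers fell. Of 6 endothelial markers 5 rose and 1 fell, of 6 Kupffer markers 3 rose, of 5 stellate markers 2 rose and 2 fell, and of 5 lineage-positive blood markers 3 fell. Among 8 housekeeping genes Gapdh, Eef1a1 and Sdha rose and Tbp fell. Among the 5 glucocorticoid genes Tat and Sgk1 rose and Fkbp5 (-3.35) and Per1 fell, of the 6 temperature genes Rbm3 was called lower but was dim at 1 month, with no bound beyond 1, and 0 of 10 immediate early genes were called. The summed level of the hepatocyte markers was 3.70 and 2.91 in Lin- BMCs and 11.1 and 11.0 at 1 month. The groups differ in cell type and tissue, and in how cells were isolated (liver perfusion and eGFP sorting against magnetic beads). They also differ in the mice (injured male hemophilia A recipients against female eGFP donors). The hour of collection is not given for either group. The part of each of these in the clock genes cannot be told apart.

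**Figure D4:**
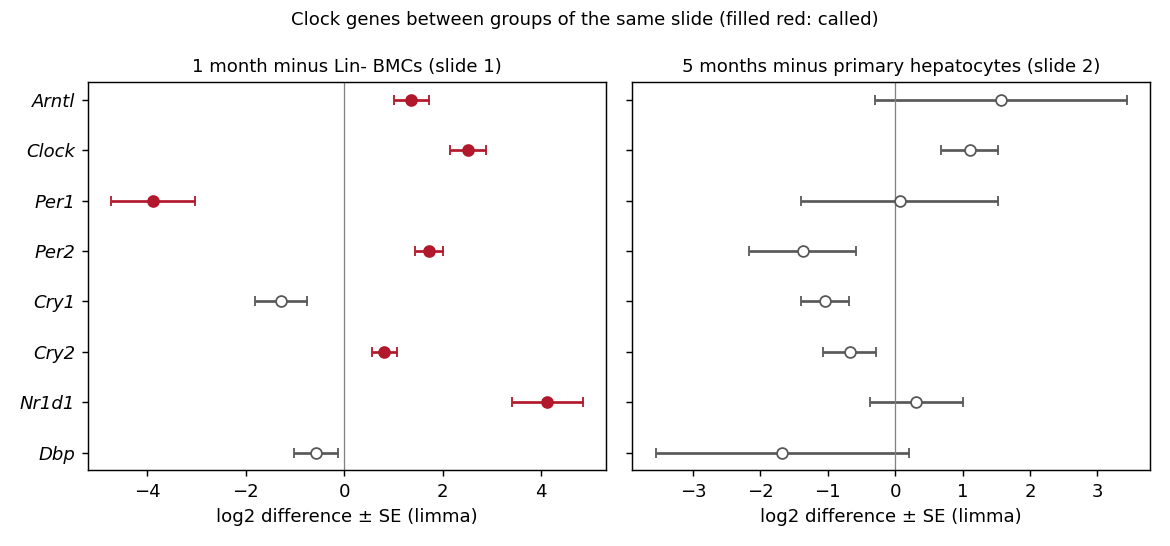
Log2 difference of each clock gene in the comparisons within a slide (horizontal axis), with its standard error from limma and filled red points for genes called (difference beyond 0.6, adjusted p below 0.05). Between 1 month cells and Lin- BMCs 6 of 8 are called, and between 5 months cells and primary hepatocytes 0 of 8, with standard errors of 1.87 for Arntl, 1.88 for Dbp and 1.46 for Per1.

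The plot of group differences shows the wide errors of the second slide. Against both primary arrays, 0 of 8 clock genes were called at 5 months by limma, 1 had an unadjusted p under 0.05, and the methods' t-test with Benjamini-Hochberg adjustment also called 0. Over all 19929 genes limma called 0.552%, or 110 genes, and 2817 had an unadjusted p under 0.05. The gene with an unadjusted p under 0.05 was Cry1 (-1.04, SE 0.35, limma, adjusted p = 0.328). The differences of Arntl (1.57, SE 1.87), Dbp (-1.68, SE 1.88) and Per1 (0.07, SE 1.46) were smaller than their errors. The differences were -1.37 for Per2 (SE 0.79), -0.68 for Cry2 (SE 0.39) and 0.32 for Nr1d1 (SE 0.69). The median was -0.30 for the clock genes and 0.04 for all genes. None of the other clock lists had a gene called in that comparison, and of the remaining lists only Fos was called (3.15, limma, adjusted p = 0.0374).

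Against one primary array at a time the same 5 months pair gave different answers. These fits assume that the lone primary array varies like the 5 months pair. The primary pair did not: H4 minus H2 was -5.51 for Arntl, 5.53 for Dbp and 4.28 for Per1. Between G1 and G3 each of these genes differed by less than 1. A fit with a lone primary array cannot measure that spread. The calls and adjusted p-values of these fits leave it out, so they cannot show a difference between the groups. Only the size and sign of the differences are compared here. Against H4 alone, 5 of the 8 clock genes tested before were called, where 6.77% of 20644 genes were. Arntl (4.32, limma, adjusted p = 0.00439) and Clock (1.65, limma, adjusted p = 0.0339) were higher at 5 months, and Dbp (-4.44, limma, adjusted p = 0.00415), Per1 (-2.07, limma, adjusted p = 0.0174) and Per2 (-2.50, limma, adjusted p = 0.0114) were lower. Per3 entered that fit only through H4, where it is high, and is left to the bounds given above.

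Against H2 alone, 1 of the same 8 was called, where 6.19% of 21129 genes were, and it was Per1 (2.20, limma, adjusted p = 0.0211), higher at 5 months. Arntl was at -1.19 (limma, adjusted p = 0.0742), Dbp at 1.09 (limma, adjusted p = 0.0858) and Nr1d1 at -0.65 (limma, adjusted p = 0.232). Npas2 entered that fit only through H2 and is not counted. Arntl, Per1, Dbp and Nr1d1 thus had opposite signs against H2 and against H4. The 5 months mean was nearer to H2 than to H4 for 6 of 8 clock genes, all but Per1 and Cry1, and for 44.9% of 18242 genes.

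Between the slides, 6 of the 10 clock genes have a probe of identical sequence on both designs, and Arntl, Dbp, Per1 and Cry2 do not. On these probes Per3 was above background in H4 only and Npas2 in H2 only, and Clock, Per2, Cry1 and Nr1d1 could be tested among 9008 genes. The values below are relative to the 75th percentile over the shared probes and are therefore shifted against those above.

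Nr1d1 was at -3.77 and -4.06 in Lin- BMCs, 1.26 and -0.79 at 1 month, 0.27 and -1.64 in primary hepatocytes and -0.43 and -0.24 at 5 months. All 6 hepatocyte arrays were above both arrays of Lin- BMCs, and among the hepatocyte groups the ranges overlapped. Nr1d1 was higher than in Lin- BMCs by 3.23 in primary hepatocytes (SE 0.80, limma, adjusted p = 0.0105) and by 3.58 at 5 months (SE 0.80, limma, adjusted p = 0.00698).

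Clock was at -0.97 and -1.91 in Lin- BMCs, 1.12 and 1.1 at 1 month, -0.08 and -1.14 in primary hepatocytes and 0.66 and 0.39 at 5 months. The order was 1 month, 5 months, primary hepatocytes and Lin- BMCs, with H4 between the 2 arrays of Lin- BMCs. Clock was higher at 5 months than in Lin- BMCs by 1.96 (SE 0.44, limma, adjusted p = 0.00719) and at 1 month than in primary hepatocytes by 1.72 (limma, adjusted p = 0.0456). The last call was lost with quantile normalization, the other upper quartile, the deposited log2 values, the methods' t-test, the fit of these groups alone and without B1, B2 or H4.

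Per2 was at -2.65 and -2.25 in Lin- BMCs, -3.18 and -4.24 at 1 month, -3.77 and -1.47 in primary hepatocytes and -3.84 and -4.07 at 5 months. H4 was the highest of the 8 arrays and H2 was among the 1 month and 5 months arrays. Cry1 was at -3.76 and -4.83 in Lin- BMCs, -6.15 and -4.96 at 1 month, -4.56 and -4.68 in primary hepatocytes and -6.03 and -5.21 at 5 months, so that the arrays of Lin- BMCs and primary hepatocytes overlapped. Neither gene was called in any comparison across slides.

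In counts, 1 of 4 was called for primary hepatocytes against Lin- BMCs (67.4% of all genes), 2 of 4 for 5 months against Lin- BMCs (67.3%), 1 of 4 for 1 month against primary hepatocytes (16.3%) and 0 of 4 for 5 months against 1 month (16.7%, and 0 of 4 also at an unadjusted p under 0.05, by limma and by the methods' t-test). For primary hepatocytes against Lin- BMCs the count was 0 without L4 and 2 without H4, with Nr1d1 itself lost without L4 or H2, and for 1 month against primary hepatocytes it was 0 without B1, B2 or H4 and 2 without H2. These comparisons share arrays, and the slide cannot be told apart from the group in any of them.

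**Figure D5:**
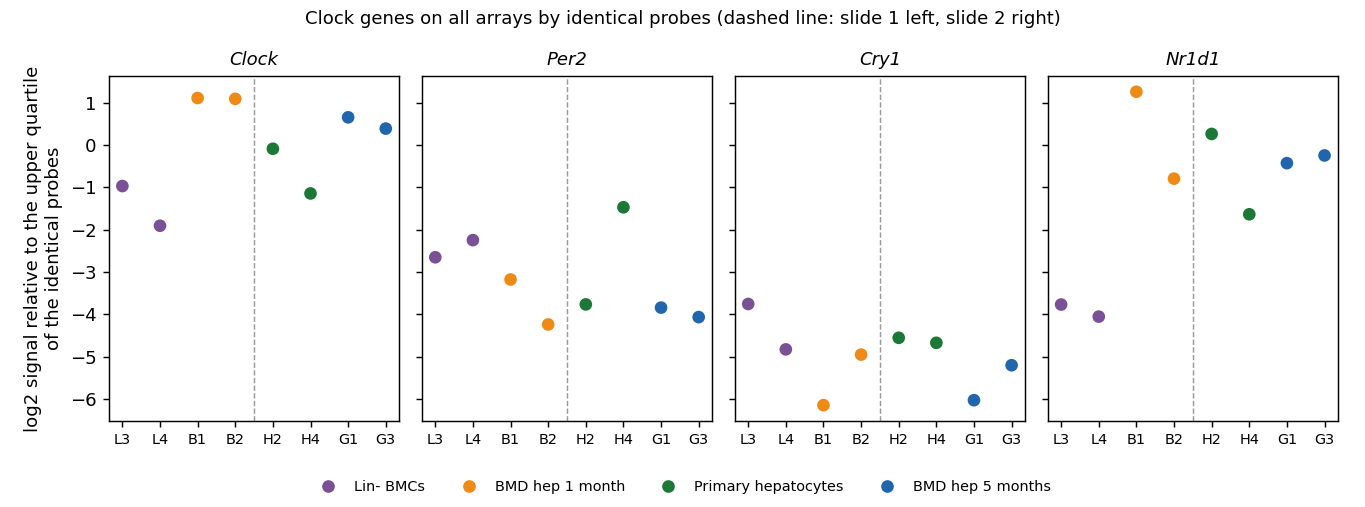
Level of Clock, Per2, Cry1 and Nr1d1 on all 8 arrays from probes of identical sequence, as log2 signal minus the 75th percentile over shared probes (vertical axis), with one point per array. The 6 hepatocyte arrays lie above Lin- BMCs for Nr1d1 (from -1.64 to 1.26 against -3.77 and -4.06), and H4 has the highest Per2 (-1.47).

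The plot of identical probes covers the 4 genes for which all groups can be set side by side. Genes with the most similar course over the 8 arrays were found by the root mean square distance of mean-centred log2 levels among the same 9008 genes. Closest to Nr1d1 were Prlr, the prolactin receptor gene (0.465), Fasn, fatty acid synthase (0.486), and Cyp51 of cholesterol synthesis (0.503). Closest to Per2 were Efhd2 (0.387), LOC636687 (0.453) and Rhbdd2 (0.455), to Clock Bet1 (0.374), Ly96 (0.398) and Lgalsl (0.420), and to Cry1 Rnf41 (0.330), Ccnt2 (0.352) and Casp8 (0.365). Between clock genes the distance was 1.05 for Nr1d1 and Clock, 0.951 for Per2 and Cry1 and 2.41 for Nr1d1 and Per2. Steps between groups or slides enter each of these distances, and the Cry1 probe was dim in B1, B2 and G1.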

How the data were processed

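The deposited files hold, for 8 arrays, the spot intensity that Agilent Feature Extraction 11.5.1.1 gave after background subtraction, and log2 values that the authors shifted to the 75th percentile of each array in GeneSpring GX. The intensities were used here, outlier spots left out, log2 taken and each array's 75th percentile subtracted. A probe was kept where both arrays of some group of the fit were well above background, and each gene was read from its brightest probe. The fits used limma 3.58.1 (R 4.3.3) and Benjamini-Hochberg adjustment over all genes, and a call needed a log2 difference beyond 0.6 and an adjusted p below 0.05. Fits within a slide used all probes of its design, with 4 arrays each. Fits across slides used all 8 arrays and the 13553 probes whose 60-base sequence both designs share. Scripts were tested on simulated data. The tables came from pandas 2.3.3 and numpy 2.4.6 and the figures from matplotlib 3.10.9, all under Python 3.11.15.

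With 2 arrays a group, their number limits the precision, an exact two-sided permutation test could not go below p = 0.33, and p-values measure the spread between these samples, which may be technical. Places and names are those of RefSeq, GRCm38.p6. The clock genes and all lists were chosen with earlier results of these data known. The rule for named genes took all 10 clock genes, up to 5 called genes per list and comparison within a slide, and the 3 genes most like a clock gene. Genes given for array pairs are those beyond 1. Some genes of the lists enter the counts and are not reported here by name. As alternatives, each result was recomputed with quantile normalization, with normexp background correction (offset 50), the other set of probes for the percentile, no filter, the mean of a gene's probes, the deposited log2 values, slide as a block or only the groups compared, the methods' t-test and leaving out each array. Each probe on its own, array pairs after quantile normalization and the 5 months pair against either primary array were added after the data were seen.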

Additional observations from a re-analysis of the deposited data

How the results depend on the processing

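No paired analysis was possible because the array numbers of the groups compared share fewer than 2 values. Of the log2 differences of single clock genes under the other settings, 250 kept their direction and call, 24 kept the direction and lost the call, 2 gained it and 19 turned. The number of clock genes called at 1 month against Lin- BMCs (6) was 0 by the methods' t-test with adjustment, 3 without it, and 2 with slide as a block, where 4 could be tested. For primary hepatocytes against Lin- BMCs (1) it was 0 by the methods' t-test with and without adjustment, and for 5 months against Lin- BMCs (2) it was 1 with adjustment. For 1 month against primary hepatocytes (1) it was 0 with quantile normalization, the other upper quartile, the deposited log2 values, the methods' t-test with or without adjustment and the fit of these groups alone. In the fits that left out 1 array, the count changed for at least 1 array in every comparison except 5 months against 1 month. Each of these fits leaves 1 group with a single array, whose spread it cannot measure. For 5 months against primary hepatocytes without H2 or H4, the SE of Arntl and Dbp was 0.26. With both arrays it was 1.87 and 1.88. The cause of the changed counts was not tested. The call of Cry2 at 1 month was also lost with normexp and quantile normalization.

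Most differences that turned under the other settings were those of Cry1 and Per2. With normexp, Cry1 was at 0.40 for 1 month against Lin- BMCs, 0.16 for primary hepatocytes against Lin- BMCs, 0.038 for 5 months against Lin- BMCs and 0.46 for 1 month against primary hepatocytes, Per2 at -0.19 for 1 month against Lin- BMCs and 0.22 for primary hepatocytes against Lin- BMCs, and Per1 at -0.040 for 5 months against primary hepatocytes. With quantile normalization, Cry1 and Per2 were at 0.042 and 0.014 for primary hepatocytes against Lin- BMCs and at 0.70 and 0.15 for 5 months against 1 month. With the other upper quartile, Per2 was at 0.074 for primary hepatocytes against Lin- BMCs and Cry1 at 0.17 for 5 months against 1 month, and with the deposited log2 values at 0.080 and 0.18. With slide as a block Per2 was at -1.26 for 1 month against Lin- BMCs, on its identical probe. On single probes, Clock was at -0.21 and Per2 at -1.29 for 1 month against Lin- BMCs, and Cry2 at 0.45 for 5 months against primary hepatocytes.

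Leaving out 1 array turned differences in these ranges. For 1 month against Lin- BMCs they were -1.85 to 0.20 for Cry1 and -1.85 to 1.88 for Per2, for which the brightest probe also changed. For 5 months against primary hepatocytes they were -1.19 to 4.32 for Arntl, -4.44 to 1.09 for Dbp, -0.65 to 1.28 for Nr1d1 and -2.07 to 2.20 for Per1. For primary hepatocytes against Lin- BMCs they were -0.86 to 0.21 for Cry1 and -1.32 to 0.98 for Per2, and for 1 month against primary hepatocytes -0.11 to 1.95 for Nr1d1 and -2.24 to 0.058 for Per2. For 5 months against 1 month they were -0.66 to 0.53 for Cry1, -1.60 to 0.46 for Nr1d1 and -0.78 to 0.29 for Per2. Npas2 and Per3 were above background on 1 of 8 arrays each, which limits them to bounds.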
